A study of Mus musculus with 6 samples.

Results

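The Hippo pathway is described here through 10 genes in B16-OVA cells, a mouse melanoma line that carries chicken ovalbumin as a model antigen. The genes were chosen by name: the coactivator genes Yap1 and Wwtr1 (which encodes TAZ), the DNA-binding partner genes Tead1 to Tead4, the kinase genes Lats1 and Lats2, and Amotl2 and Ankrd1, which are widely used as readouts of YAP and TAZ. These genes and the gene lists used below were chosen with earlier results of these data known. All 10 were found among the 56734 gene symbols of the count table, and all 10 were among the 17718 genes with enough counts to be tested. Messenger RNA was sequenced from 3 libraries of WT cells, whose sample titles bear the tag gNC, and 3 libraries of Ythdf2-KO cells. Both genotypes were grown in the same medium with serum. The labels give neither the edited sequence nor whether a genotype is 1 clone. They also do not say whether replicates were separate cultures, so the p-values measure the spread between these libraries. YTHDF2 is a protein that binds N6-methyladenosine in mRNA and promotes decay of the bound transcripts.

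In the Hippo pathway, the kinases MST1 and MST2 (genes Stk4 and Stk3) act with the scaffold SAV1 and the MOB1 adaptors to activate LATS1 and LATS2. LATS kinases phosphorylate YAP and TAZ, which are then held in the cytoplasm or degraded; unphosphorylated YAP and TAZ enter the nucleus and drive transcription with TEAD proteins. LATS2 and AMOTL2 are products of target genes that feed back on the pathway. In melanoma, YAP, TAZ and TEAD activity is known as a feature of invasive and dedifferentiated states. Most of this control acts on proteins, by phosphorylation and location, and mRNA counts do not measure it.

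The promoters of Ankrd1, Amotl2 and Ccn1 are printed because these are classical YAP and TAZ readout genes whose mRNA rose in Ythdf2-KO. Each sequence holds the 250 bases before the annotated start, read 5′ to 3′ in the direction of transcription, from RefSeq on build GRCm38.p6. Capitals mark GGAATG or its reverse complement CATTCC, the core of the M-CAT element that TEAD proteins recognise. Ccn1 is not among the 10 genes and was singled out after its values were seen.
Ankrd1, chr19:36119845-36120094, minus strand: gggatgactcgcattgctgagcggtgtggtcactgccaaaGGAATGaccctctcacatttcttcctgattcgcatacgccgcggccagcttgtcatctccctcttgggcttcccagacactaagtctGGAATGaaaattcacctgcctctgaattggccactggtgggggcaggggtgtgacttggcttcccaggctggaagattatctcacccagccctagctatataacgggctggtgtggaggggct
Amotl2, chr9:102717554-102717803, plus strand: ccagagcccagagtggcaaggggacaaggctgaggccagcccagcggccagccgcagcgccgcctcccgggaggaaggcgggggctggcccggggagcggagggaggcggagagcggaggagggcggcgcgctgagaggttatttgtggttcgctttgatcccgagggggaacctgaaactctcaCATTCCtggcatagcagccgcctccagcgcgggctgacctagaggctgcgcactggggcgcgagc
Ccn1, chr3:145649986-145650235, minus strand: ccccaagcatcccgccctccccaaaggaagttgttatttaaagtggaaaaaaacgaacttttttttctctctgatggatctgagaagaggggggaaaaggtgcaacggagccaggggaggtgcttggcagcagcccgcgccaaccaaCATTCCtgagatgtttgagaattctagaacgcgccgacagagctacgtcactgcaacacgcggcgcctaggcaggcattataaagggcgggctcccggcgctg
In Ankrd1 the first letters of the 2 matches lay 210 and 123 bases before the start. The single match lay 65 bases before the start in Amotl2 and 103 bases before it in Ccn1, both as CATTCC. Of the 10 genes, 8 had an entry in the promoter table; Tead1 and Tead4 had none. Of these 8, 5 held a match in at least 1 window, namely Amotl2, Ankrd1, Tead3, Wwtr1 and Yap1. Among all 27025 genes of the table, 14.4% held one. Of the YAP and TAZ target genes listed further below, 12 had an entry and 4 of these held a match, namely Axl, Ccn1, Crim1 and Ptpn14. F3 and Myof, which also rose, had an entry without a match, and Ccn2 had no entry. Matching genes included some that rose, some that fell and Tead3, which was not called. A match is a run of letters and not a measured binding site.

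Ythdf2 mRNA, the check of the labels, was lower in every Ythdf2-KO library. Its level, in counts-per-million (CPM) after TMM scaling, was 100.1, 101 and 104 there and 124, 124 and 125 in WT. The fall was 18.4%, and 28.9% of all genes tested were likewise lower in every Ythdf2-KO library. The counts do not show whether the YTHDF2 protein was lost. TMM scaling sets the libraries to a common level by trimmed means of gene ratios. Totals ran from 55660473 to 69497273 counts per library, and 3 counts were worth 0.0433 to 0.0540 CPM. All 7 melanocyte markers checked were present. Their summed level ran from 237 to 241 CPM in WT and from 1401 to 1431 CPM in Ythdf2-KO. Each of the 7 was called higher in Ythdf2-KO (quasi-likelihood test of edgeR, adjusted p under 0.05), against 24.1% of all genes tested. The 6 fibroblast markers summed to 822 to 846 CPM in WT and 661 to 676 CPM in Ythdf2-KO, with 4 genes higher and 2 lower. The sums for 6 leukocyte, 4 endothelial and 6 epithelial markers stayed below 3 CPM in every library. Mitochondrially encoded genes took 1.08 to 1.33% of counts in WT and 1.57 to 1.82% in Ythdf2-KO. The part of these differences in the results that follow was not tested.

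Across all genes tested, 24.1% were higher and 25.8% lower in Ythdf2-KO (quasi-likelihood test of edgeR at an adjusted p under 0.05), so 49.9% were called. Of the 10 Hippo genes, 6 were higher (Tead1, Tead2, Tead4, Lats2, Amotl2 and Ankrd1), 3 were lower (Yap1, Wwtr1 and Lats1), and Tead3 was not called. Their median log2 fold change was 0.17, against -0.0053 over all genes tested. With offsets that correct for the length and GC content of transcripts these medians were 0.080 and -0.055. The offsets were fitted in each library to the deviation of each gene from its mean over all libraries. They also take out any difference between genotypes that follows length or GC content, which cannot be told apart from a technical bias. Every difference was under 1.5-fold. In bulk RNA a change in the share of cells that express a gene and a change in RNA per cell cannot be told apart. The libraries of the genotypes did not overlap for 8 of the 10 genes, 5 higher and 3 lower; over all genes tested this held for 55.9%, with 26.9% higher and 28.9% lower. The direction of calls moved with scaling: of all calls, TMM put 48.3% on the higher side in Ythdf2-KO, upper-quartile factors 59.2%, and the correction for length and GC content 36.8%. With that correction 3 of the 10 genes were called higher and 3 lower, against 18.6% and 32.0% of all genes tested.

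**Figure D1:**
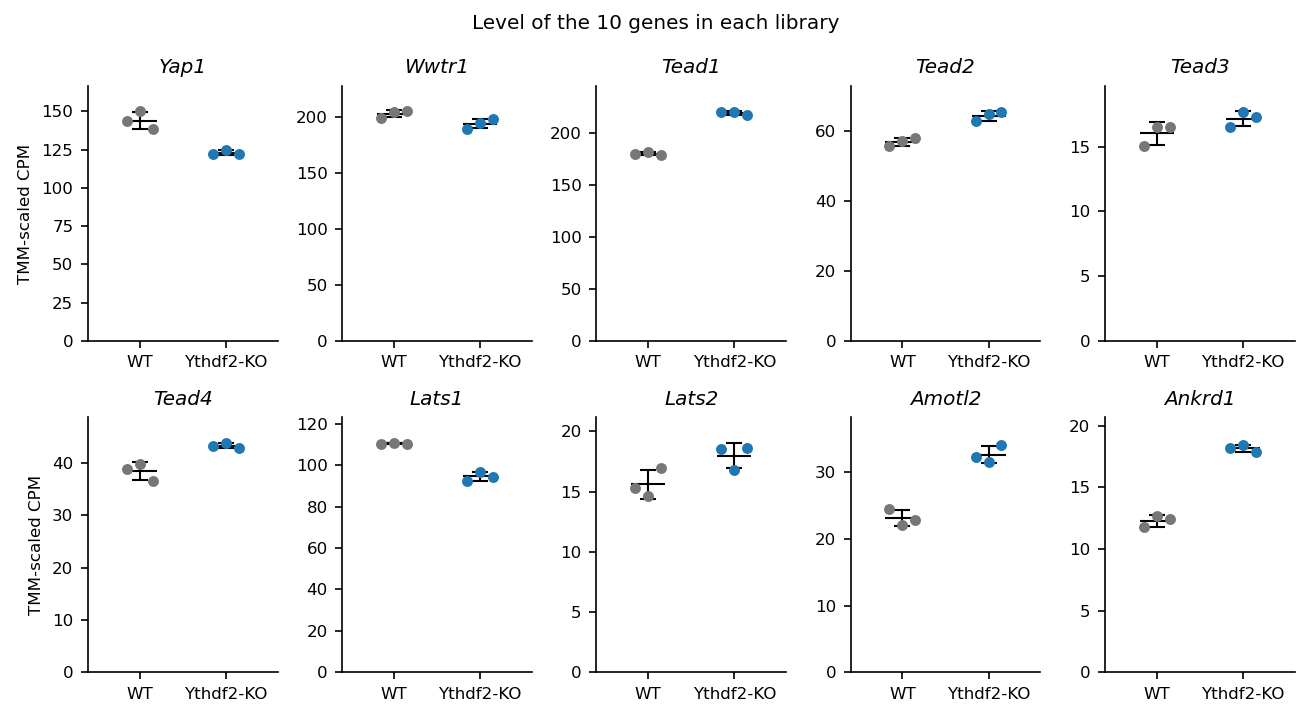
TMM-scaled CPM (vertical axis, from 0, own scale per panel) of the 10 genes in 3 WT and 3 Ythdf2-KO libraries; points are libraries, the horizontal line is the mean and the bars are the SD. Genotypes are apart for 8 genes, while Tead3 and Lats2 overlap.

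The coactivator genes were both lower in Ythdf2-KO. Yap1 stood at 143, 149.9 and 139 CPM in the WT libraries, against 122, 125 and 122 CPM in the Ythdf2-KO libraries; values are given in the order of replicates 1 to 3 throughout. Every Ythdf2-KO library was below every WT library, and the mean fell by 14.6% (log2 fold change -0.23 ± 0.027 SE, n = 3 per group, edgeR adjusted p = 9.30e-10). Wwtr1 stood at 199, 205 and 205 CPM in the WT libraries, against 189, 194 and 198 CPM in the Ythdf2-KO libraries. The libraries did not overlap but the gap was narrow, and the level fell by 4.51% (log2 fold change -0.067 ± 0.023 SE, n = 3 per group, edgeR adjusted p = 0.0157). The Wwtr1 call was lost without WT replicate 2 (edgeR adjusted p = 0.0888), WT replicate 3 (0.0705) or Ythdf2-KO replicate 1 (0.140), and with upper-quartile scaling (edgeR adjusted p = 0.666). Over the alternatives that kept all libraries, its adjusted p ran from 0.00672 to 0.666.

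The TEAD genes, whose products bring YAP and TAZ to DNA, were higher in 3 of 4 cases. Tead1 had 179.8, 182 and 179 CPM in the WT libraries, against 221, 220.4 and 218 CPM in the Ythdf2-KO libraries. All Ythdf2-KO libraries were above all WT libraries, and Tead1 rose 1.22-fold (log2 fold change 0.28 ± 0.023 SE, n = 3 per group, edgeR adjusted p = 9.05e-15). Tead2 had 55.5, 57.1 and 57.9 CPM in the WT libraries, against 62.7, 64.7 and 65.3 CPM in the Ythdf2-KO libraries, again without overlap, and rose 1.13-fold (edgeR adjusted p = 1.70e-05). Tead4 had 38.8, 39.8 and 36.5 CPM in the WT libraries, against 43.1, 43.8 and 42.8 CPM in the Ythdf2-KO libraries, without overlap, and rose 1.13-fold (edgeR adjusted p = 2.85e-04). Tead3 had 15.01, 16.49 and 16.53 CPM in the WT libraries, against 16.52, 17.7 and 17.3 CPM in the Ythdf2-KO libraries. The genotypes overlapped for Tead3, and its log2 fold change of 0.098 ± 0.062 (SE, n = 3 per group) did not pass (edgeR adjusted p = 0.199).

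The calls for Tead2 and Tead4 were lost with the correction for length and GC content (edgeR adjusted p = 0.0949 and 0.0861), while Tead1 kept a log2 fold change of 0.13 there (edgeR adjusted p = 5.12e-05). Tead3 passed with upper-quartile scaling (log2 fold change 0.15, edgeR adjusted p = 0.0402) and changed sign with the correction (log2 fold change -0.040).

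The LATS kinase genes went in opposite directions. Lats1 was at 110.0, 111 and 110.3 CPM in the WT libraries, against 92.4, 96.7 and 94.5 CPM in the Ythdf2-KO libraries. The genotypes did not overlap, and Lats1 fell by 14.4% (log2 fold change -0.22 ± 0.027 SE, n = 3 per group, edgeR adjusted p = 1.67e-09). Lats2 was at 15.3, 14.6 and 16.9 CPM in the WT libraries, against 18.5, 16.8 and 18.6 CPM in the Ythdf2-KO libraries. WT replicate 3 lay just above Ythdf2-KO replicate 2, so the genotypes overlapped, and the fitted rise was 1.15-fold (log2 fold change 0.21 ± 0.064 SE, n = 3 per group, edgeR adjusted p = 0.00632). The Lats2 call was lost with the correction for length and GC content (log2 fold change 0.095, edgeR adjusted p = 0.229). In GENCODE annotation of GRCm38, 42.4% of the exon bases of Lats2 lie in another gene model on the same strand, which had 0 counts in all 6 libraries. The sources used here do not give how reads in shared exons were counted, and the level of Lats2 may be understated.

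The readout genes showed the largest differences of the 10. Ankrd1, which encodes a nuclear ankyrin-repeat protein, was at 11.8, 12.7 and 12.4 CPM in the WT libraries, against 18.2, 18.4 and 17.9 CPM in the Ythdf2-KO libraries. The groups were well apart, and Ankrd1 rose 1.48-fold (log2 fold change 0.56 ± 0.063 SE, n = 3 per group, edgeR adjusted p = 2.51e-10). Amotl2, which encodes an angiomotin family scaffold that binds YAP, was at 24.5, 22.1 and 22.9 CPM in the WT libraries, against 32.2, 31.5 and 34.1 CPM in the Ythdf2-KO libraries. It rose 1.41-fold without overlap (log2 fold change 0.50 ± 0.049 SE, n = 3 per group, edgeR adjusted p = 5.58e-12). Under every alternative that was run, both stayed called, with log2 fold changes of 0.54 to 0.62 for Ankrd1 and 0.39 to 0.55 for Amotl2.

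**Figure D2:**
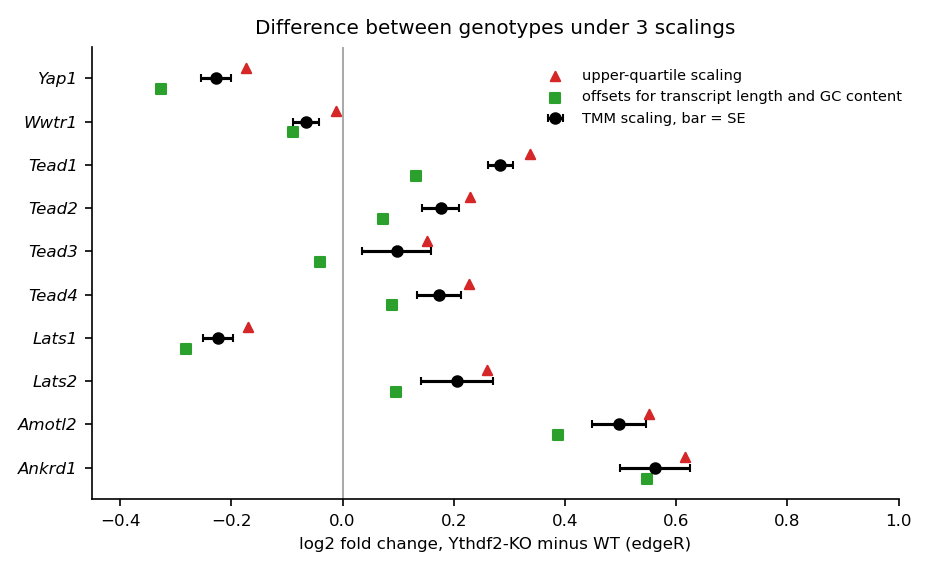
Fitted log2 fold change (horizontal axis, Ythdf2-KO minus WT) of the 10 genes with TMM scaling (circles, bars are the SE), upper-quartile scaling (triangles) and the correction for transcript length and GC content (squares). Yap1, Wwtr1 and Lats1 lie below 0 in all of them. Tead1, Tead2, Tead4, Lats2, Amotl2 and Ankrd1 lie above 0 in all of them, while Tead3 changes sign. Wwtr1, Tead2, Tead4 and Lats2 did not keep their call in all of them.

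Ratios of gene pairs within a library do not depend on scaling by 1 factor per library. The correction for length and GC content differs between genes, and the ratios were not computed with it. The log2 ratio of Wwtr1 to Yap1 counts was 0.48, 0.45 and 0.56 in the WT libraries, against 0.63, 0.64 and 0.70 in the Ythdf2-KO libraries, so Wwtr1 made up more of the coactivator counts in each Ythdf2-KO library than in any WT library. The log2 ratio of Lats2 to Lats1 was -2.85, -2.92 and -2.70 in the WT libraries, against -2.32, -2.52 and -2.34 in the Ythdf2-KO libraries, a shift of 0.43 towards Lats2 with no overlap. The log2 ratio of Tead4 to Tead1 was -2.21, -2.20 and -2.29 in the WT libraries, against -2.36, -2.33 and -2.35 in the Ythdf2-KO libraries, a shift of -0.11. Each of the 3 ratios had an exact two-sided permutation p of 0.10 (adjusted p = 0.10 over the 3 ratios), the smallest that 3 against 3 libraries allow, so none could pass 0.05.

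**Figure D3:**
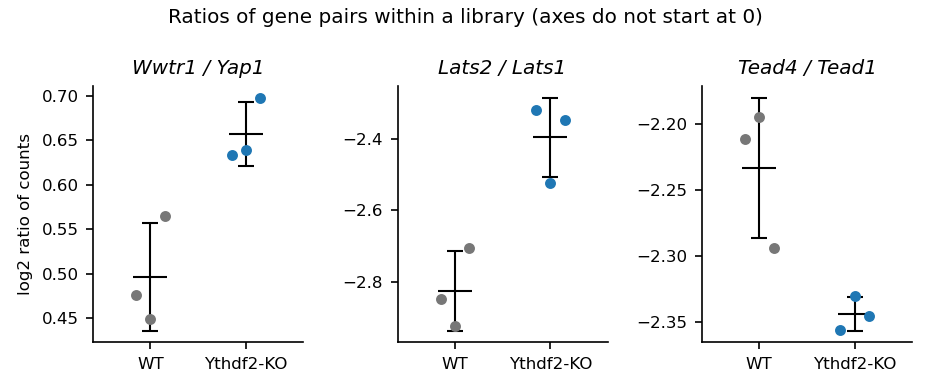
Log2 ratio of raw counts (vertical axis, not from 0) for 3 gene pairs in 3 WT and 3 Ythdf2-KO libraries; points are libraries, the horizontal line is the mean and the bars are the SD. Wwtr1 to Yap1 and Lats2 to Lats1 are higher in all Ythdf2-KO libraries, and Tead4 to Tead1 is lower.

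Levels of different genes were set side by side per kilobase of annotated exon, as CPM per kb. The exon lengths come from GENCODE on GRCm38, not the build of the counts. Each length joins the exons of all annotated transcripts of a gene, expressed or not. The order of genes and the TEAD shares depend on these lengths, and the SDs do not cover that. In WT, Wwtr1 was highest at 42.5 ± 0.649 CPM per kb (SD, n = 3), followed by Yap1 at 15.6 ± 0.616 and Lats1 at 15.1 ± 0.0569, whose libraries overlapped. Tead1 followed at 13.3 ± 0.115, Tead2 at 11.9 ± 0.250 and Tead4 at 10.7 ± 0.463 CPM per kb, with no overlap between neighbours. Ankrd1 stood at 4.26 ± 0.168, Amotl2 at 3.68 ± 0.194 and Tead3 at 2.38 ± 0.129 CPM per kb. Lats2, at 2.24 ± 0.172 CPM per kb, overlapped with Tead3, with the limit on its level given above.

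In Ythdf2-KO, Wwtr1 was again highest at 40.6 ± 0.877 CPM per kb (SD, n = 3). Tead1 came next at 16.2 ± 0.128, above Yap1 at 13.3 ± 0.179 and Lats1 at 12.95 ± 0.293 in every library. Tead2, at 13.4 ± 0.287 CPM per kb, overlapped with Yap1 and Lats1, and Tead4 followed at 12.02 ± 0.144. Ankrd1 reached 6.29 ± 0.0964 and Amotl2 5.18 ± 0.212 CPM per kb, while Lats2 and Tead3 overlapped at 2.58 and 2.56 CPM per kb. The make-up of the summed TEAD level shifted little: Tead1 held 34.8 ± 0.228% of it in WT and 36.6 ± 0.439% in Ythdf2-KO, and Tead3 held 6.24 ± 0.304% and 5.78 ± 0.150%.

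The kinases and adaptors upstream of LATS, outside the 10 genes, were called in 1 of 5 cases, against 49.9% of all genes tested. Of Stk3, Stk4, Sav1, Mob1a and Mob1b, only Stk3 was called by edgeR with TMM scaling. Stk3 was at 42.5, 40.2 and 41.0 CPM in the WT libraries, against 45.5, 47.4 and 45.9 CPM in the Ythdf2-KO libraries, a rise of 1.12-fold without overlap (edgeR adjusted p = 2.54e-04). The median log2 fold change of these 5 genes was -0.015. With upper-quartile scaling 2 of them were called higher, against 29.5% of all genes, and with the correction for length and GC content 1 was higher and 2 lower, against 18.6% and 32.0%.

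Of 32 listed further regulators, 31 were tested, 10 rose and 9 fell, and the median log2 fold change was 0.021. That is 61.3% called, against 49.9% of all genes tested, of which 24.1% were higher and 25.8% lower. Amot, which encodes the founding angiomotin that tethers YAP, was at 116, 117 and 112 CPM in the WT libraries, against 169, 182 and 175 CPM in the Ythdf2-KO libraries, and it rose 1.52-fold without overlap (edgeR adjusted p = 4.47e-23). Ptpn14, which encodes a phosphatase that binds YAP, rose 1.34-fold, from 53.7 ± 0.418 to 71.7 ± 3.01 CPM (SD, n = 3; edgeR adjusted p = 1.96e-14). Mink1, which encodes a MAP4K family kinase, rose 1.23-fold from 70.7 ± 3.60 CPM, and Wtip, which encodes an Ajuba family LIM protein, rose 4.86-fold from only 0.710 ± 0.126 CPM (SD, n = 3).

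Among the regulators that fell was Map4k4, which encodes a kinase acting on LATS alongside MST1 and MST2. It was at 274, 271 and 268 CPM in the WT libraries, against 209, 212 and 214 CPM in the Ythdf2-KO libraries, and it fell by 21.9% without overlap (edgeR adjusted p = 2.38e-18). Frmd6, which encodes a FERM-domain protein of the upstream complex, fell by 17.9% from 72.7 ± 3.79 CPM (SD, n = 3). Limd1, which encodes a LIM protein that restrains LATS, fell by 14.0% from 103 ± 2.52 CPM (SD, n = 3). With the correction for length and GC content, 7 of the 31 were higher and 15 lower, beside a tilt to lower calls over all genes (18.6% higher and 32.0% lower).

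Besides the TEAD genes, 2 of the 4 Vgll genes, whose products compete with or join YAP and TAZ on TEAD proteins, were tested, and they moved in opposite directions. Vgll3 was at 18.4, 22.2 and 20.5 CPM in the WT libraries, against 44.39, 44.35 and 44.39 CPM in the Ythdf2-KO libraries, a rise of 2.18-fold (log2 fold change 1.12 ± 0.049 SE, n = 3 per group, edgeR adjusted p = 6.90e-23). Vgll4, which encodes a repressor of YAP and TEAD transcription, was at 78.0, 81.2 and 80.6 CPM in the WT libraries, against 61.6, 63.0 and 65.2 CPM in the Ythdf2-KO libraries. It fell by 20.9% without overlap (log2 fold change -0.34 ± 0.032 SE, n = 3 per group, edgeR adjusted p = 1.48e-12). Vgll1 had 2 counts in 1 WT library and none elsewhere, and Vgll2 had none in any library.

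**Figure D4:**
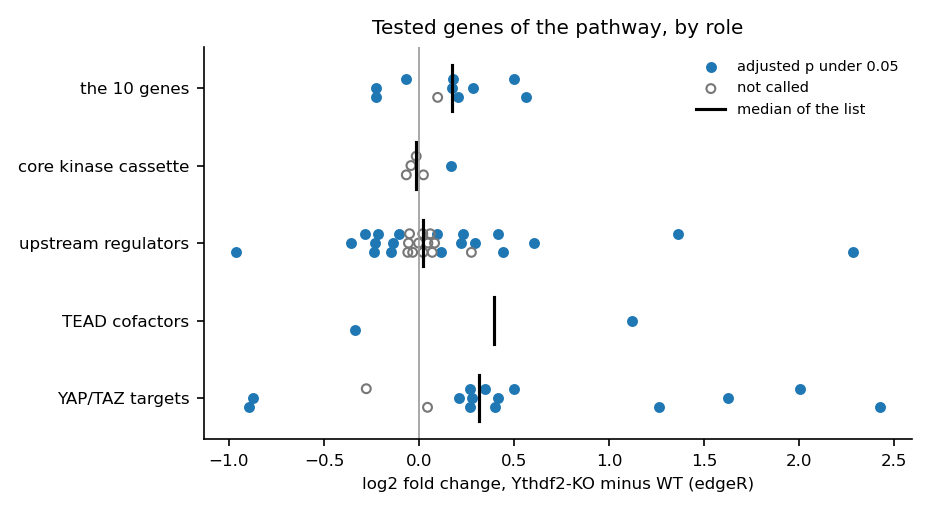
Fitted log2 fold change (horizontal axis, Ythdf2-KO minus WT) of the tested genes by role in the pathway; filled points passed an adjusted p under 0.05, open points did not, and black lines are medians. The 16 tested YAP/TAZ targets have a median of 0.31, and the 31 regulators one of 0.021.

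Target genes of YAP and TAZ were mostly higher. Of 19 further genes commonly used as a YAP and TAZ target signature, 16 were tested: 12 rose and 2 fell; the median log2 fold change was 0.31. That is 87.5% called, against 49.9% of all genes tested, for a list chosen with earlier results of these data known. With the correction for length and GC content, 10 rose and 4 fell, against 18.6% and 32.0% of all genes. Ptpn14 belongs to this list and to the regulators.

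F3, which encodes tissue factor, was at 85.4, 84.2 and 88.4 CPM in the WT libraries, against 209, 206 and 204 CPM in the Ythdf2-KO libraries. It rose 2.40-fold (log2 fold change 1.26 ± 0.026 SE, n = 3 per group, edgeR adjusted p = 9.95e-37). Myof, which encodes the membrane-repair protein myoferlin, rose 1.32-fold, from 317 ± 4.25 to 418 ± 6.43 CPM (SD, n = 3). Axl, which encodes a receptor tyrosine kinase, rose 1.21-fold, from 676 ± 14.0 to 819 ± 6.89 CPM. All Ythdf2-KO libraries were above all WT libraries for F3, Myof and Axl. With TMM scaling the log2 fold changes were 0.40 for Myof, 0.28 for Axl and 0.42 for Ptpn14. Over the alternatives that kept all libraries, they ran from 0.24 to 0.45, 0.20 to 0.33 and 0.23 to 0.47. That of F3 ran from 1.26 to 1.32.

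Ccn1 and Ccn2 encode the matricellular proteins CYR61 and CTGF, the targets most often used as readouts, and are named after their values were seen. Ccn1 was at 243, 197 and 237 CPM in the WT libraries, against 703, 681 and 700.4 CPM in the Ythdf2-KO libraries, a rise of 3.08-fold (log2 fold change 1.62 ± 0.093 SE, n = 3 per group, edgeR adjusted p = 1.50e-04). WT replicate 2 was the lowest library, and the groups were far apart. With libraries left out, the log2 fold change of Ccn1 ran from 1.55 to 1.68. Its edgeR adjusted p then ran from 2.87e-51 to 0.0148, so the p-value depended strongly on the libraries used. Ccn2 was scarce, with 10, 15 and 16 counts in WT and 72, 75 and 85 counts in Ythdf2-KO. That is 0.180, 0.229 and 0.233 CPM against 1.05, 1.21 and 1.23 CPM, a rise of 5.36-fold (edgeR adjusted p = 4.92e-09).

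The targets that fell were Gadd45a, which encodes a stress-induced growth-arrest protein, and Foxf2, which encodes a forkhead factor. Gadd45a went from 14.0, 13.1 and 13.1 CPM in WT to 7.42, 6.87 and 7.36 CPM in Ythdf2-KO, a fall by 0.89 on the log2 scale (edgeR adjusted p = 7.83e-14). Foxf2 fell by 0.87 on the log2 scale, from 19.5 ± 0.915 to 10.7 ± 1.47 CPM (SD, n = 3; edgeR adjusted p = 1.29e-12). Arhgef17, at a log2 fold change of 0.044, and Fjx1, at -0.28, did not pass. Igfbp3, Nt5e and Nuak2 had too few counts to be tested. Igfbp3 had 0, 0 and 2 counts in WT and 16, 15 and 2 counts in Ythdf2-KO, so it overlapped.

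**Figure D5:**
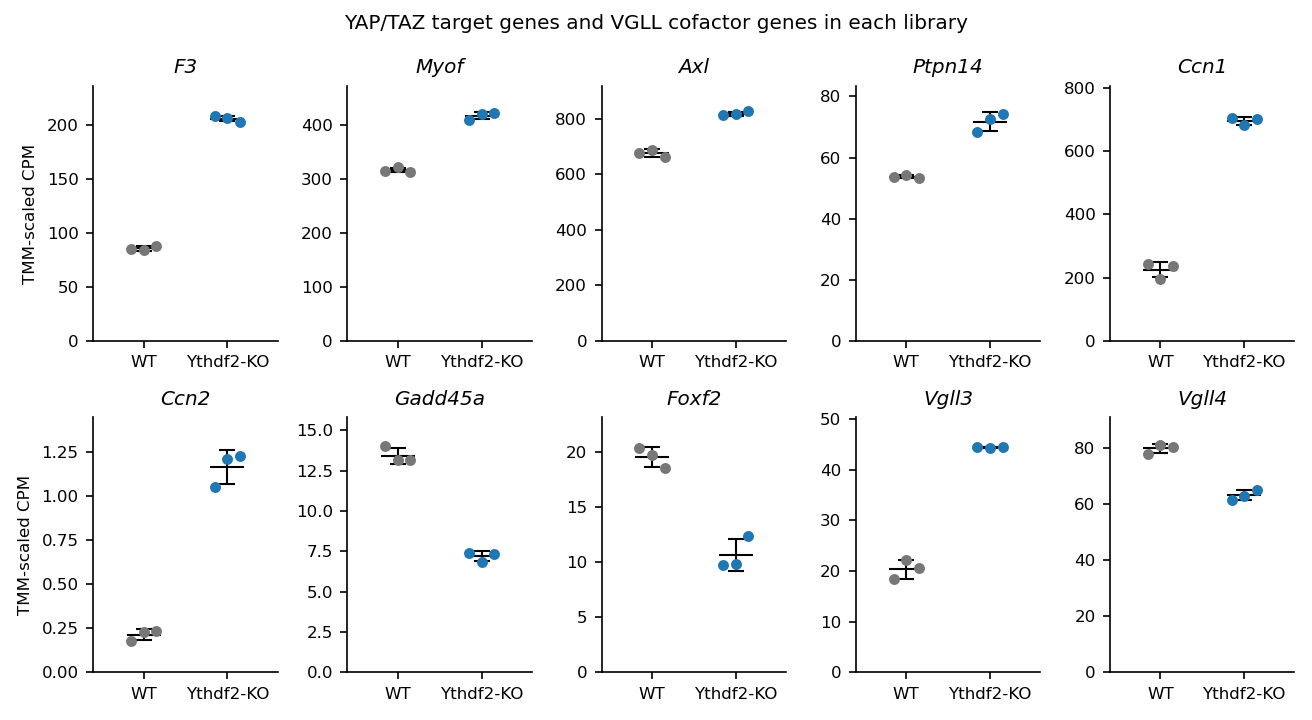
TMM-scaled CPM (vertical axis, from 0, own scale per panel) of 8 YAP/TAZ target genes and of Vgll3 and Vgll4 in 3 WT and 3 Ythdf2-KO libraries; points are libraries, the horizontal line is the mean and the bars are the SD. F3, Myof, Axl, Ptpn14, Ccn1, Ccn2 and Vgll3 are higher in all Ythdf2-KO libraries, and Gadd45a, Foxf2 and Vgll4 are lower.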

How the data were processed

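Polyadenylated RNA of 6 libraries, 3 per genotype, was read as whole counts per gene symbol, deposited by the authors without normalization. Per the submitters' processing notes, fastp 0.23.2, HISAT2 2.2.1, featureCounts 2.0.6 and GRCm39 were used; the sources used here do not give settings for strand and shared reads, and antisense or overlapping genes cannot be told apart. The 10 genes and the gene lists were chosen with earlier results of these data known.

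Counts were filtered with filterByExpr, scaled with TMM and fitted with edgeR 4.0.16 in R 4.3.3 (robust quasi-likelihood test, genotype as the only term), with Benjamini-Hochberg adjustment over 17718 genes. The SE is the log2 fold change divided by the root of the F statistic. Genes named from lists were the members with the smallest adjusted p, 4 per direction, or all where 5 or fewer were called; 1 gene that this rule picks is not reported here. On counts simulated for this comparison with 17718 genes, 74% of genes changed 1.2-fold and 92% of those changed 1.5-fold were recovered, with 2 false calls. The simulation changed 50 genes at each fold and left 17518 unchanged. It therefore does not test the scaling or the rate of false calls where 49.9% of genes are called. Replicates differed by more than counting noise (chi-square per degree of freedom 3.98 to 13.0 within a genotype, 102 to 119.9 between). WT replicate 2 gave 13.0 and 11.6 against WT replicates 1 and 3, which gave 3.98 against each other.

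Alternatives were scaling by RLE, by upper quartiles and after leaving out mitochondrial and the 20 most abundant genes, no filter or a mean of 5 CPM, a replicate block, leaving out each library or replicate 3 of both genotypes, DESeq2 1.42.0, limma-voom (limma 3.58.1), an adjusted p under 0.01, and a correction by offsets for exon length and transcript GC content, smoothed with mgcv 1.9.3. Lengths and GC came from GENCODE on GRCm38 by symbol (95.9% of tested genes matched). Figures used matplotlib 3.10.9.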

Additional observations from a re-analysis of the deposited data

How the results depend on the processing

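Yap1, Lats1, Tead1, Amotl2, Ankrd1 and Ythdf2 kept their direction and their call under every alternative run. The log2 fold change of Wwtr1 lost its call with RLE scaling (-0.058), DESeq2 (-0.058), upper-quartile scaling (-0.013), no filter on low counts (-0.046), a filter at a mean of 5 CPM (-0.043) and an adjusted p under 0.01 (-0.067), and ran from -0.081 to -0.050 when libraries were left out. With the offsets that correct for length and GC content, the log2 fold changes of Tead2 (0.073), Tead4 (0.088) and Lats2 (0.095) were no longer called and that of Tead3 changed sign (-0.040); with upper-quartile scaling Tead3 was called (0.15). The offsets left 3 of the 10 genes called higher. They gave 2 core kinase genes, 15 regulators and 4 targets called lower; upper-quartile scaling gave 2 core kinase genes called higher. Leaving out libraries gave 0 to 1 core kinase genes called lower. The median log2 fold change of the core kinase genes changed sign with upper-quartile scaling (0.039), no filter (0.0051) and the 5 CPM filter (0.0089), ran from -0.032 to 0.0060 with 1 library left out, and was -0.042 without replicate 3 of both genotypes. That of the regulators was -0.086 with the offsets, ran from 0.0060 to 0.040 with 1 library left out, and was -0.0044 without replicate 3 of both genotypes. The causes of these changes were not tested.

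The counts showed no sign that replicate numbers pair the libraries. Deviations of same-numbered libraries from their group means had correlations of 0.011, -0.037 and -0.052. Differently numbered libraries had correlations from -0.015 to 0.051. These values do not show how the libraries were prepared. With the replicate block, 4132 genes were called higher and 4409 lower, against 4270 and 4569, and 6 and 3 of the 10 Hippo genes. The ratio shifts with the block were 0.16, 0.43 and -0.11, with an exact sign-flip p of 0.25 each, the smallest that 3 pairs allow. Upper-quartile scaling moved the tested genes by a median of 0.054 and the offsets by a median of -0.041 on the log2 scale, beside a log2 fold change of -0.067 for Wwtr1. The lowest count of the 10 genes in a library was 653, for Ankrd1.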
